A study of Drosophila melanogaster with 4 samples.

Results

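Regions enriched for histone H3 (clusters) in *Drosophila melanogaster* embryos, found by sequencing of immunoprecipitated chromatin (ChIP-seq), are described here for U. U is the sequence of FlyBase release 5 in which scaffolds without a chromosome assignment are joined. All clusters that the deposited lists place on U were taken, whatever their score or length. They numbered 292 of 18424 in the series-wide list, 30 of 3717 in the list of ChIP replicate 1 and 27 of 2198 in that of replicate 2. The animals were wild-type embryos of the Oregon-R strain at 14 to 16 h, with no allele or treatment. The 4 libraries were 2 immunoprecipitations with 1 anti-H3 antibody and 2 inputs of chromatin DNA, which carry the same replicate numbers as the ChIP libraries. Whole embryos hold many cell types, and the labels do not say whether the replicates came from separate collections, so the spread between them may be technical.

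H3 is a core histone, and with H2A, H2B and H4 it forms the protein spool of the nucleosome. An antibody to H3 itself, rather than to a modified form, reads where nucleosomes are recovered more or less often than in the input. Unplaced scaffolds of the fly genome come largely from heterochromatin, the compact chromatin around centromeres and on the Y chromosome, where transposable elements and satellite repeats are frequent and short reads are hard to place. The order of scaffolds within U is not the order on any chromosome, so a distance on U has a physical meaning only within a scaffold. Positions below are on release 5, with no gene annotation or sequence of that release used here, so clusters are named by position and not by gene or repeat.

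Each cluster carries the authors' own score, which behaves as a log2 value, so that a step of 1 is a factor of 2. The files do not say what the score compares. The read depth of the libraries is unknown, and the number of clusters per list limits the precision. Clusters of one list are not replicates of a condition, so the values are given as descriptions, with the mean and SD of the 2 replicate lists and with exact 95% binomial intervals (Clopper-Pearson) for shares, which cover counting error only.

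Clusters were sparse on U, and they were high in score. The series-wide list held 29.1 clusters per Mb of the 10.0 Mb of U, and the replicates held 2.99 and 2.69, a mean of 2.84 ± 0.21 (SD, n = 2). On the placed heterochromatin, the parts of the assembly most like U, these densities were 33.4, 4.52 and 2.59 per Mb. On the chromosome arms (2L, 2R, 3L, 3R, X and 4) they were 148.0, 30.3 and 17.8 per Mb. Clusters covered 396 kb of U in the series-wide list (3.94% of its length, mean score 1.22), 50.6 kb in replicate 1 (0.503%, mean score 1.00) and 43.5 kb in replicate 2 (0.433%, mean score 1.40). The replicates thus lay close in number and covered length on U, but not in mean score. On the arms replicate 1 had far more clusters (3645 against 2147). Counts as small as 30 and 27 carry a large counting error, so no contrast with the arms is read from them.

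The scores on U spread widely, from 0.14 to 3.69 in the series-wide list. Their median was 0.94, the lower and upper quartiles were 0.56 and 1.69, and the highest 10% lay above 2.58. In replicate 1 scores ran from 0.35 to 2.20 with a median of 0.91, and in replicate 2 from 0.43 to 3.56 with a median of 1.03. The interquartile range on U was 1.12 series-wide, 0.66 for replicate 1 and 0.95 for replicate 2. On the arms it was 0.076, 0.10 and 0.14, and on the placed heterochromatin 0.19, 0.20 and 0.23, in the same order.

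In every list the median score on U was above that of the arms and of the placed heterochromatin taken as a whole. It exceeded the arms by 0.53 series-wide, by 0.36 for replicate 1 and by 0.34 for replicate 2, a replicate mean of 0.35 ± 0.0090 (SD, n = 2). Against the placed heterochromatin the excess was 0.47, 0.29 and 0.27. Within the latter, the 3 series-wide clusters of YHet had a median score of 1.08 at a median length of 1001 bp, above the median score of U, and in replicate 2 the 1 cluster of 2LHet scored 3.08. The direction held in 2 of 2 replicates, and the exact two-sided permutation test over paired replicate values gave p = 0.50, the smallest that 2 replicates allow, so the difference could not pass a threshold in this design. A score over 1 was held by 133 of 292 series-wide clusters on U (45.5%, interval 39.7 to 51.5), against 1.18% of the whole list. The replicates gave 13 of 30 on U (43.3%, against 0.538% of the list) and 16 of 27 (59.3%, against 1.87%). On the placed heterochromatin 34 of 310 series-wide clusters passed 1 (11.0%), and on the arms 51 of 17822 (0.286%). Of the 100 highest scores of the series-wide list, 66 fell on U, 12 on the placed heterochromatin and 22 on the arms. In each replicate list U held 17 of the 100 highest scores, although those lists had 30 and 27 clusters on U.

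**Figure D1:**
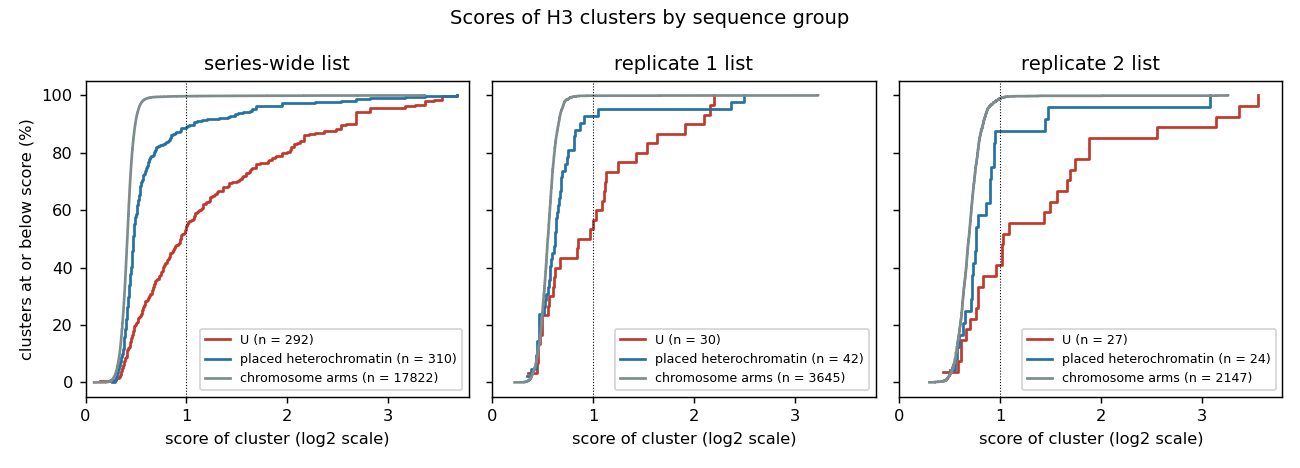
Cumulative share of clusters (%) by score on the log2 scale, in the series-wide list and in each replicate list, for U, the placed heterochromatin and the chromosome arms; the dotted line marks a score of 1. The curves of U rise slowly, and 45.5%, 43.3% and 59.3% of their clusters lie to the right of the line.

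The highest scores belonged to clusters at or near the shortest length listed. The top cluster, U:4716098-4717102, scored 3.69 and measured 1005 bp. Next came 4 clusters of equal score, 3.53, at U:185958-186958, U:3381128-3382130, U:5074282-5075282 and U:6749810-6750924, of 1001, 1003, 1001 and 1115 bp. U:2240182-2241958 scored 3.45 over 1777 bp and was the only one of the 10 highest that was longer than 1115 bp. The other 4 shared a score of 3.36 and measured 1001 to 1063 bp. None of the 10 overlapped a cluster of either replicate. Among all U clusters under 1301 bp, the minimum of the replicate lists, 4 of 178 did (2.25%), against 28.1% of the whole list. The lack of overlap among the 10 is thus not read as a trait of high scores. At the other end, U:4470090-4471358 had the lowest score, 0.14, over 1269 bp. U:6476044-6477356 followed with 0.24 and U:6291114-6293060 with 0.26, and the other 7 of the 10 lowest scored 0.30 to 0.35.

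Exact score values recurred on U. The 292 series-wide clusters took 219 distinct scores, and 192 of them (65.8%) had a score found at least once more in the list, against 75.4% of the whole list. The score 2.69 occurred 12 times on U, 8 of these at 1001 bp, and 5 times elsewhere. The score 1.69, lower by 1, occurred 4 times on U. For 75.7% of U clusters the score differed from the most frequent score of the list (0.36) by the log2 of a ratio of whole numbers that were both at most 100. On the placed heterochromatin this share was 40.3% and on the arms 22.4%. In the replicate lists it was 43.3% and 81.5% on U, against 23.4% and 56.4% on the arms. In each list, such steps of small whole numbers were thus more frequent on U than on the arms. How many reads lay behind a score is unknown.

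Clusters on U were short in the series-wide list but not in the replicate lists. The series-wide median was 1165 bp, with quartiles of 1016.5 and 1597.5 bp and a range of 1001 to 3577 bp. The arms had a median of 1457 bp and the placed heterochromatin 1349 bp. In the replicates the U medians were 1584.5 and 1619 bp, a mean of 1601.75 ± 24.4 bp (SD, n = 2), above those of the arms by 64.5 and 134 bp. The replicate lists start at 1301 bp and the series-wide list at 1001 bp, so that the shortest classes exist in the latter alone. Exactly 1001 bp was the length of 53 U clusters (18.2%), against 22 on the placed heterochromatin (7.10%) and 401 on the arms (2.25%). Under 1301 bp lay 178 U clusters (61.0%), against 45.2% on the placed heterochromatin and 37.9% on the arms.

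The longest cluster on U was U:6046412-6049988, of 3577 bp, with a score of 0.44. U:2550574-2553852 followed with 3279 bp and 0.59, U:5631208-5634106 with 2899 bp and 0.35, U:1396320-1399168 with 2849 bp and 0.47, and U:2462654-2465366 with 2713 bp and 0.52. The remaining 5 of the 10 longest measured 2317 to 2615 bp, and U:5033892-5036208 had the highest score among the 10, 1.07. Most of these 10 thus scored below the U median of 0.94. Of the 10, 8 overlapped a replicate cluster, against 28.1% of the whole list and 64.3% of arm clusters of 2000 bp or more. Among the 18 U clusters of 2000 bp or more the median score was 0.53 and 3 scored over 1. On the arms that length class had a median of 0.44, and 1 of 3376 scored over 1.

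Score fell with length in the series-wide list on U, a relation seen across clusters that share their libraries and caller. Spearman's rho was -0.47 and Pearson's r of score with log2 length -0.40 (n = 292). The median score was 2.07 for the 53 clusters of 1001 bp, 0.95 for the 125 longer ones under 1301 bp, 0.71 for the 96 from 1301 bp to under 2000 bp, and 0.53 for the 18 of 2000 bp or more. On the placed heterochromatin rho was -0.24, and on the arms -0.04. Without the clusters under 1301 bp rho on U was -0.055 (n = 114), so the relation rested on lengths that the replicate lists do not contain. The same minimum gave 0.24 on the placed heterochromatin and 0.34 on the arms. Replicate 1 gave 0.24 (n = 30) and replicate 2 -0.27 (n = 27), with opposite signs. On the arms rho was 0.26 in replicate 1 and 0.16 in replicate 2. A higher score on U was not limited to short clusters. Among clusters of at least 1301 bp the median was 0.67 on U, 0.45 on the placed heterochromatin and 0.41 on the arms. In that class 32 of 114 U clusters scored over 1, against 9 of 170 and 8 of 11066.

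**Figure D2:**
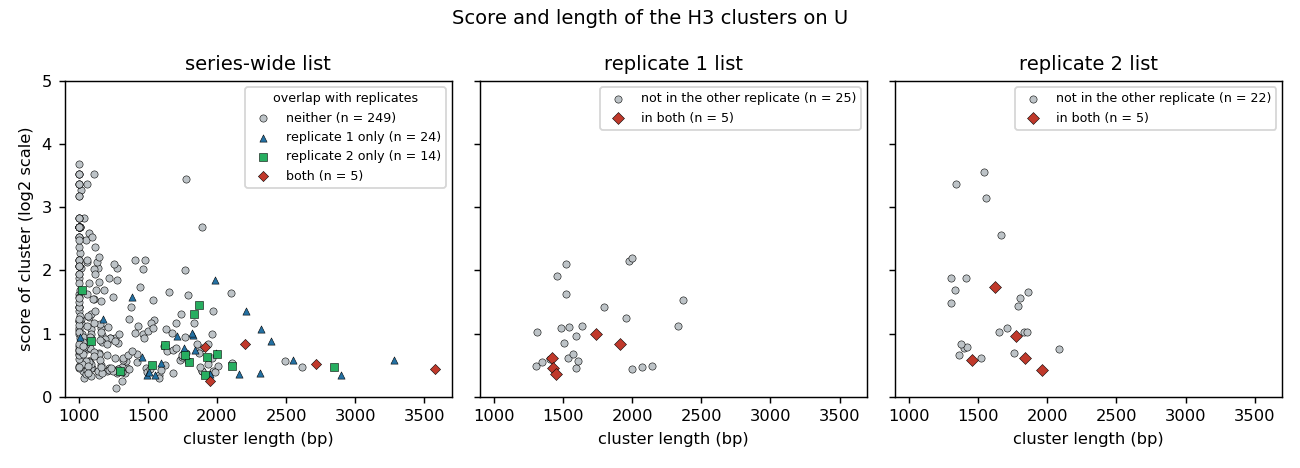
Score on the log2 scale against length in bp for each cluster on U, in the series-wide list (symbols give the overlap with the replicate lists) and in both replicate lists (red diamonds: found in both replicates). The column of points at 1001 bp in the series-wide list reaches 3.53 and holds no overlap with a replicate, whereas the 5 clusters of both replicates lie between 0.26 and 0.84.

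Neighbouring clusters on U seldom stood close together. The median gap between neighbours was 19.1 kb in the series-wide list (quartiles 6.59 and 41.0 kb, n = 291), against 15.5 kb on the placed heterochromatin and 2.77 kb on the arms. In the replicates the median gap on U was 256 and 309 kb, against 17.6 and 30.7 kb on the arms. A run was counted where at least 3 clusters followed each other with gaps of at most 5000 bp. Runs on U took in 26 of 292 clusters (8.90%, interval 5.90 to 12.8), against 72.4% of the whole list, 20.6% on the placed heterochromatin and 74.4% on the arms. Such runs depend on the number of clusters per Mb, which was 29.1 on U, 33.4 on the placed heterochromatin and 148.0 on the arms. Its part in these shares was not tested, and scaffold ends within U were not known here. With gaps of up to 10000 bp, 68 U clusters (23.3%) were in runs, against 91.2% of the list.

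There were 8 runs on U, 1 of 5 clusters and 7 of 3, beside 40 pairs and 186 clusters standing alone. The run of 5, U:523230-536528, spanned 13299 bp with scores from 0.30 to 2.27 and overlapped neither replicate. U:402782-412882 spanned 10101 bp with scores of 0.38 to 0.49, and 1 of its clusters overlapped replicate 2. U:1667008-1673740 spanned 6733 bp with scores of 0.38 to 0.52 and no overlap with a replicate. U:1966566-1976500 (9935 bp, 0.41 to 0.59) had 1 cluster in replicate 1. U:2462654-2473648 (10995 bp, 0.52 to 0.77) held a cluster found in both replicates. The other 3 runs, which lie farther along U, had higher scores. Their medians were 0.99 at U:5819202-5824536, 1.69 at U:6825100-6829810 and 1.11 at U:8904054-8910742, and the last 2 each had 1 cluster in replicate 2. Over all 8 runs the clusters had a median score of 0.54, against 0.96 for the 266 others. Of the 5 runs of lower score 4 start in the first 2 Mb of U, where scores were low, as given below. Of the clusters in runs 5 of 26 overlapped a replicate (19.2%), against 38 of 266 (14.3%). The share was 14.7% over all U clusters (interval 10.9 to 19.3) and 28.1% over the whole list, so no difference is read from these counts. Neighbours at most 5000 bp apart differed in score by a median of 0.25 (58 pairs), and neighbours farther apart by 0.68 (233 pairs). Clusters in runs scored lower than the others, and the part of score level in this difference was not tested.

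**Figure D3:**
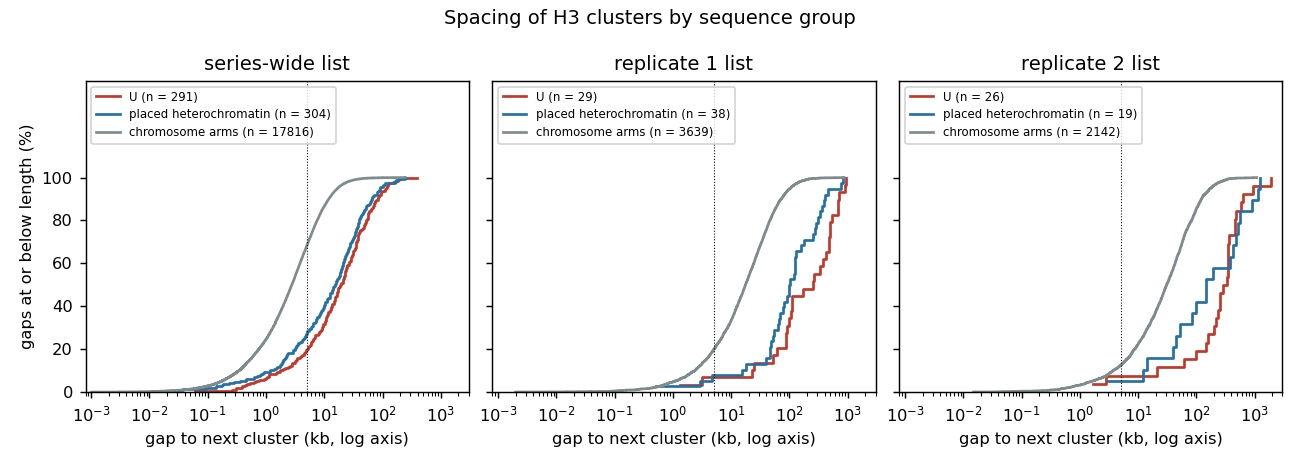
Cumulative share (%) of gaps between neighbouring clusters by gap length in kb on a log axis, in each list, for U, the placed heterochromatin and the arms; the dotted line marks 5 kb. In the series-wide list 19.9% of the gaps on U lie at or left of the line, against 27.6% and 68.2%.

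Scores were lower in the first part of U than in the rest. The first complete window of 500000 bp held 28 series-wide clusters, the most of the 20 windows, and the window that starts at 9000001 held 4, the fewest; the median was 12.5. In the first 2 Mb the median score was 0.52 (n = 73), and after it 1.08 (n = 219). Across clusters the rank correlation of score with position was 0.38 series-wide, 0.31 for replicate 1 and 0.58 for replicate 2 (n = 292, 30 and 27). Before the midpoint of U 51 of 155 series-wide clusters had a score over 1, and after it 82 of 137. Replicate 1 gave 4 of 13 before and 9 of 17 after it, and replicate 2 gave 5 of 13 and 11 of 14. How scaffolds were ordered within U was not used here, and its part in this trend was not tested. The longest stretch of U without a series-wide cluster was U:9105685-9491633, of 385949 bp, and it held no replicate cluster either. The next 3, at U:685679-891405, U:1673741-1859873 and U:2553853-2734713, were 205727, 186133 and 180861 bp long and were also empty in the replicates. The fifth, U:3160241-3339669, of 179429 bp, contained 1 cluster of replicate 2. Only 1 of 30 clusters of replicate 1 and 8 of 27 of replicate 2 overlapped no series-wide cluster on U. Few could therefore fall in such stretches, and their emptiness in the replicates is not read as agreement.

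Few clusters on U recurred in the replicate lists. At least 1 bp was shared with a replicate cluster by 43 of 292 series-wide clusters (14.7%, interval 10.9 to 19.3), against 28.1% of the whole list. Replicate 1 accounted for 29 (9.93%, against 19.6% of the list) and replicate 2 for 19 (6.51%, against 11.5%). Both replicates were overlapped by 5 (1.71%, interval 0.558 to 3.95, against 3.04%), and 249 overlapped neither. The name of the series-wide list marks it as made from these replicates, so overlap with it is in part built in. The placed heterochromatin gave 17.7% for at least 1 replicate and the arms 28.5%. List size bounds these shares, as the replicates held only 30 and 27 clusters on U beside 292 series-wide. On the arms they held 3645 and 2147 beside 17822. The lower share on U is therefore not read as a trait of its clusters.

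Recurrence on U went with length. Over clusters of all lengths it also went with a modest score, but score and length themselves went together in the series-wide list. None of the 53 clusters of 1001 bp overlapped a replicate, which allows a share of up to 5.66% by a limit of 3 counts and 6.72% by the exact interval. Of the 125 longer ones under 1301 bp 4 did (3.20%), of the 96 from 1301 bp to under 2000 bp 26 did (27.1%), and of the 18 of 2000 bp or more 13 did (72.2%, interval 46.5 to 90.3). On the arms the same classes gave 4.74%, 6.39%, 32.2% and 64.3%, so that at like length the intervals of U and the arms overlapped in every class. Longer clusters also meet others more often by chance, and the replicate lists contain no cluster under 1301 bp. By score, 13 of 58 U clusters up to 0.5 recurred (22.4%), 21 of 101 from 0.5 to 1 (20.8%), 9 of 74 from 1 to 2 (12.2%), and 0 of 59 over 2, which allows a share of up to 5.08% by a limit of 3 counts and 6.06% by the exact interval. Only 6 of these 59 measured at least 1301 bp, and for 0 of 6 the exact interval allows up to 45.9%. Score and length cannot be told apart in that class. The arms gave 28.0%, 34.1%, 13.3% and 4.76% in the same classes (1 of 21 over 2). For 1 of 21 the exact interval reaches 23.8%, below the arm shares for scores up to 1. A low share among the highest scores was thus also seen on the arms, where these clusters were short too (median 1009 bp). The placed heterochromatin had 0 of 8 over 2, for which the exact interval allows up to 36.9%. That does not separate it from the 19.9% of its clusters up to 0.5. Among the 114 U clusters of at least 1301 bp, 32 of 82 with a score up to 1 recurred (39.0%, interval 28.4 to 50.4) and 7 of 32 with a higher score (21.9%, interval 9.28 to 40.0), and these intervals overlap. On the arms they were 42.0% and 2 of 8 clusters, and on the placed heterochromatin 28.0% and 22.2% (2 of 9). At that length U gave 39.4% for scores up to 0.5 and 38.8% for 0.5 to 1. The arms gave 40.8% and 57.8%, a rise with score. No link of recurrence to a modest score is thus read at like length. The median score was 1.00 for clusters in neither replicate, 0.72 for those in replicate 1 alone, 0.65 for those in replicate 2 alone and 0.52 for those in both. Their median lengths were 1117, 1832, 1815 and 2203 bp in the same order.

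**Figure D4:**
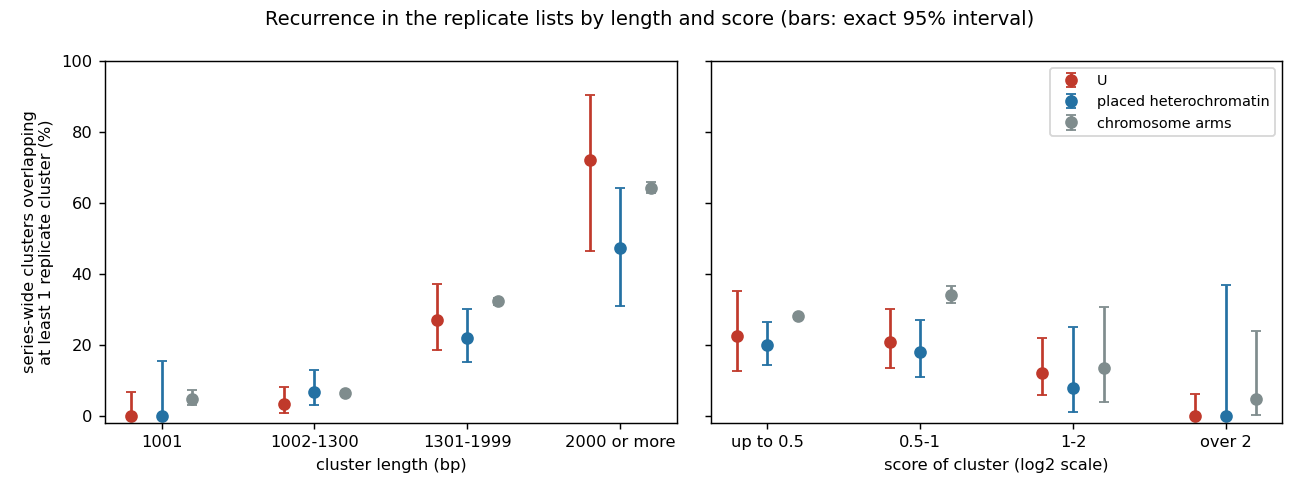
Share (%) of series-wide clusters that overlap at least 1 replicate cluster, by length class in bp and by score class on the log2 scale, for U, the placed heterochromatin and the arms, with exact 95% binomial intervals as bars. On U the share runs from 0% at 1001 bp to 72.2% at 2000 bp or more, and is 0% for scores over 2. Only 6 of the 59 U clusters with scores over 2 measure at least 1301 bp.

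The replicates themselves shared 5 positions on U. These made up 16.7% of the 30 clusters of replicate 1 (interval 5.64 to 34.7, against 13.8% of its whole list) and 18.5% of the 27 of replicate 2 (interval 6.30 to 38.1, against 23.2%). The list-wide shares lie within both intervals.

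Each shared position lay in a series-wide cluster. At U:1041494-1043696, the highest of the 5 in the series-wide list (0.84), replicate 1 scored 0.84 and replicate 2 0.96, and their clusters had 1574 bp in common. At U:6071086-6072996 the series-wide score was 0.79, and the replicates scored 0.99 and 1.74, with 1619 bp in common. That was the whole of the replicate 2 cluster, yet the scores differed more than at any of the other 4 positions, by 0.75. At U:2462654-2465366 the replicates scored 0.62 and 0.58 but shared only 491 bp, 34.6% of the replicate 1 cluster. At U:6046412-6049988, the longest cluster of all on U, they scored 0.46 and 0.61 and shared 805 bp. At U:6291114-6293060, near the bottom of the series-wide scores, they scored 0.35 and 0.43 and shared 1453 bp, all of the replicate 1 cluster. Replicate 2 was the higher at 4 of the 5 positions, with a median difference of 0.12. Over all clusters on U the medians of the lists also stood higher in replicate 2, as given above. The same held on the arms, with medians of 0.55 in replicate 1 and 0.69 in replicate 2, and on the placed heterochromatin (0.62 and 0.76).

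Clusters of 1 replicate that the other lacked were mostly far from any cluster of the other. Of the 25 such clusters of replicate 1, 2 lay within 5000 bp of a replicate 2 cluster, and the median distance was 107 kb. Of the 22 of replicate 2 it was likewise 2, and the median was 124 kb. The median gap within the lists on U was 256 kb in replicate 1 and 309 kb in replicate 2. Those gaps lie between neighbours of 1 list and are not the same measure as a distance to the other list. Whether the distances differ from those given by so few clusters per Mb was not tested. Scaffold ends within U were not known here. The nearest pair stood next to the first shared position. U:1044734-1046330 of replicate 1 (score 0.45) ended 82 bp before U:1046413-1047813 of replicate 2 (0.78). The other pair was U:3547335-3549042 of replicate 2 (1.09) and U:3553967-3556040 of replicate 1 (0.47), 4924 bp apart. Unshared clusters had a median score of 1.03 in replicate 1 and 1.26 in replicate 2, and the 5 shared ones 0.62 and 0.61.

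The series-wide list took up nearly all U clusters of replicate 1 and fewer of replicate 2. It overlapped 29 of 30 in replicate 1 (96.7%, against 98.2% of the whole list). In replicate 2 it overlapped 19 of 27 (70.4%, interval 49.8 to 86.2, against 95.9%). On the placed heterochromatin the replicate 2 share was 19 of 24 (79.2%), and on the arms 96.4%. The 1 cluster of replicate 1 left out was U:6404499-6406021, with a score of 1.63. The 8 of replicate 2 left out included several of its highest scores. They were U:8152544-8154101 (3.14), U:7516621-7518287 (2.56), U:2797773-2799078 (1.88), U:6453318-6455181 (1.66), U:3295807-3297113 (1.49), U:8640904-8642691 (1.43), U:7284285-7285661 (0.83) and U:1046413-1047813 (0.78). Of the 16 replicate 2 clusters on U with a score over 1, 6 were left out, and of the 11 others 2, with wide intervals (15.2 to 64.6% and 2.28 to 51.8%). The last of the 8 stood 92 bp from a series-wide cluster, and the others between 8693 and 42556 bp.

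Where a replicate cluster overlapped the series-wide list, its own score was usually the higher. On U this was so for 27 of 29 in replicate 1, with a median difference of 0.15, and for 19 of 19 in replicate 2, with a median of 0.35. On the arms the medians were 0.12 and 0.26, and 97.7% and 99.8% of clusters were higher in the replicate. Only clusters called in a replicate could enter its comparison, so the direction is in part built in. The series-wide partners on U were also longer, with medians of 1947 and 1911 bp against 1597 and 1654 bp. In each replicate the widest difference on U was that of its highest score. In replicate 2 U:8904341-8905883 scored 3.56 against 1.46 series-wide, followed by U:6824756-6826095 with 3.37 against 1.69. In replicate 1 U:9679007-9681007 scored 2.20 against 1.36. The order of scores was largely kept, with rho = 0.95 over the 29 clusters of replicate 1 and 0.89 over the 19 of replicate 2. The lists are not independent of each other, so these correlations are descriptions.

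**Figure D5:**
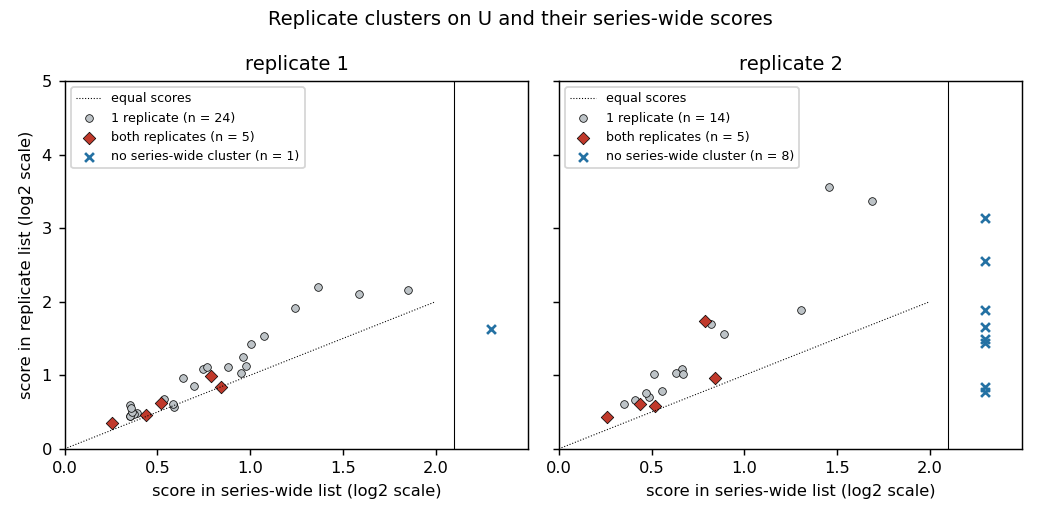
Score of each U cluster in its replicate list against the score of the overlapping series-wide cluster, both on the log2 scale; crosses right of the vertical line are replicate clusters with no series-wide cluster, 1 in replicate 1 and 8 in replicate 2. Most points lie above the dotted line of equal scores, by a median of 0.15 in replicate 1 and 0.35 in replicate 2.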

How the data were processed

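H3 ChIP-seq clusters on U were read from 3 deposited lists, those of both ChIP replicates and a list of the series. Fixation was in 1.8% formaldehyde at an age of at most 16 h, and antibody was left on the chromatin for 15 h, per the labels' protocols. The submitters' processing notes list Bowtie 0.12.7. Positions are on FlyBase release 5, per the file headers. Not given in the sources used here are the cluster caller, its threshold and how the replicates were combined. The scores were deposited as log2 values, which was read from the numbers themselves: in base 2, 100% of U scores in the series-wide list lay a log ratio of 2 whole numbers away from its most frequent score (relative tolerance 1e-10, denominators to 1000), against 0.342% in base e and 3.77% in base 10.

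Overlap was at least 1 bp. Placed heterochromatin is 2LHet, 2RHet, 3LHet, 3RHet, XHet and YHet. Clusters were named by rule: those overlapping both replicates, the 10 highest, 10 lowest and 10 longest, the 5 largest runs and empty stretches, and replicate clusters shared between replicates or missing from the series-wide list. Others named in the text (the nearest unshared pair, the widest score differences) were chosen after their values were seen. Members, groups and classes were chosen with earlier results of these data known. The overlap, run and correlation steps were tested on simulated data. Software was pandas 2.3.3, scipy 1.17.1, numpy 2.4.6 and matplotlib 3.10.9 under Python 3.11.15.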

Additional observations from a re-analysis of the deposited data

How the results depend on the processing

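Of 44 alternatives to 9 results, 16 stayed within the margin (1.5 times for counts, 1 SD of the replicates or the binomial interval for other values). A minimum of 1301 bp left 114 clusters over 204 kb, and gave a median score of 0.67, an excess over the arms of 0.27, 2.63% in runs, a correlation of score with length of -0.055 and 34.2% overlapping a replicate. Leaving out clusters of 1001 bp, an alternative added after the data were examined, gave a median score of 0.83 and an excess of 0.42. The length-weighted median score was 0.84. The upper 50% by score covered 345 kb. Merging neighbours within 1000 bp gave a median length of 1222 bp. The share in runs was 2.05%, 4.11% and 23.3% with gaps up to 1000, 2000 and 10000 bp, and 36.3% and 1.71% for runs of at least 2 and 5 clusters. Taken alone, the replicates held 27 to 30 clusters on U, 43.5 to 50.6 kb, median scores of 0.91 to 1.03, median lengths of 1584.5 to 1619 bp, an excess over the arms of 0.34 to 0.36, 6.51 to 9.93% overlapping, and a correlation of -0.27 to 0.24, which is reversed in replicate 1. Shorter lists hold fewer clusters by construction, and for other changes the cause was not tested. Median score above the arms held in every alternative run, and the clusters overlapping both replicates numbered 4 or 5 throughout. No paired analysis was possible because the input libraries, which share replicate numbers with the ChIP libraries, have no list of their own. The paired test of U against the arms was made within the ChIP replicates. Unknown read depth limits all scores.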
